A study of Mus musculus with 21 samples.

Results

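Hearts of neonatal mice injected with isoproterenol, a β-adrenergic agonist, were set against hearts from 5 pooled groups given anti-arrhythmic drugs. The comparison used 18 of the 21 libraries of the study, chosen by their drug label: 3 isoproterenol libraries against the equally weighted means of 5 groups of 3 libraries, 15 in all. Genes with at least 1 FPKM (fragments scaled to transcript length and to the mapped total) in at least 3 of the 18 libraries were tested. The 3 control libraries were outside the fit, and their values are given as a description. Every mouse was of the ICR strain, with no genetic modification named in the labels, and had the tip of the ventricle cut off (apical resection) at day 1 of life. The labels give subcutaneous injection on 7 consecutive days and sampling of the heart apex at postnatal day 7. The tested hearts received isoproterenol. The others received amiodarone (a blocker of potassium and other channels), metoprolol (a β1-selective blocker), propranolol (a nonselective β-blocker), lidocaine (a sodium channel blocker) or ivabradine (a blocker of the pacemaker current). The controls are labelled apical resection alone. Doses, sex and the interval between the last injection and sampling are not in the labels. Nor do the labels state that each library is a different animal. The p-values therefore measure the spread between libraries. Y-linked levels, given with the library values, differed within the metoprolol, lidocaine and ivabradine groups, so the libraries of these 3 groups did not share 1 heart; in the other groups the spread may be technical.

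Binding of an agonist to a β-adrenergic receptor activates the stimulatory G protein and adenylyl cyclase, and the cyclic AMP made activates protein kinase A. The kinase phosphorylates channels and calcium-handling proteins of the cardiomyocyte, and it phosphorylates the transcription factor CREB, which binds the cyclic AMP response element of genes such as Nr4a1, Sik1 and Per1. Phosphodiesterases, receptor kinases, arrestins and Rgs proteins limit the signal. In rodents, cardiomyocytes divide for only a short time after birth, and the neonatal ventricle can regrow after apical resection during that time.

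The deposited values were FPKM without read counts, so the depth behind a value is unknown. Summed FPKM were 515823 to 524232 with isoproterenol and 496304 to 552905 over the 18 libraries. Within groups, Pearson's r between libraries, across genes, was 0.990 to 0.996. On the first principal component, with 23.6% of the variance, the isoproterenol libraries had scores of -22.9 to -14.9, against -0.82 to 10.1 for the anti-arrhythmics. Markers of ventricular muscle were high throughout, their summed level being 49330 to 53230 FPKM with isoproterenol, against 48400 to 55980 FPKM with the anti-arrhythmics. Some libraries stood apart. Myl7, the atrial light chain, was at 1.27, 2.59 and 176 FPKM in the isoproterenol libraries, against 0.280 to 3.26 FPKM in the 15 others. Isoproterenol 3 also had the most Myl4 (92.9 FPKM) and Sln (21 FPKM), further atrial transcripts. Amiodarone 2 held 222 FPKM of Sftpc, made in lung, and propranolol 1 held 10.8 FPKM of Alb, made in liver. The mean of 4 Y-linked genes exceeded 1 on the log2(FPKM + 1) scale in 0 of 3 isoproterenol libraries and in 3 amiodarone, 1 metoprolol, 3 propranolol, 1 lidocaine and 2 ivabradine libraries. Within these data, a low Y-linked level and isoproterenol cannot be told apart beyond the 5 anti-arrhythmic libraries in which it was also low.

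**Figure D1:**
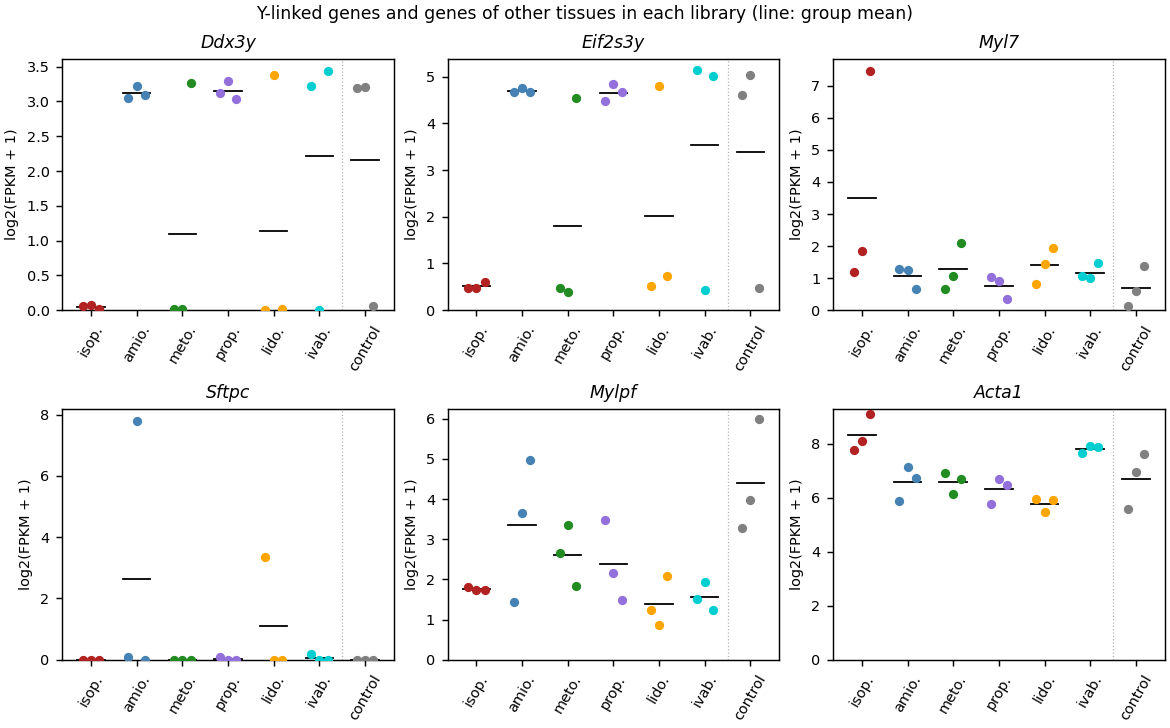
Level of 2 Y-linked genes (Ddx3y, Eif2s3y), an atrial gene (Myl7), a lung gene (Sftpc), a skeletal muscle gene (Mylpf) and the skeletal α-actin gene Acta1 in each library, as log2(FPKM + 1), with the group mean as a line; groups are abbreviated on the horizontal axis and the controls stand right of the dotted line. Y-linked transcripts were near 0 in all 3 isoproterenol libraries, and Myl7 was high in isoproterenol 3 only.

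Of 12326 genes tested, 2794 (22.7%) passed the threshold of 0.05 in limma after Benjamini-Hochberg adjustment. With isoproterenol 1163 genes rose (9.44%) and 1631 fell (13.2%), and the median difference over all genes tested was -0.014 on the log2 scale. All differences are of log2(FPKM + 1), isoproterenol minus the mean of the 5 groups, with their standard error. This scale understates the change of genes with few FPKM. The 3 isoproterenol libraries lay above all 15 others for 425 genes (3.45%) and below all 15 for 662 genes (5.37%). The 15 largest called differences each way were named only among such genes, so their lack of overlap was a condition of choice. Differences of at least 1 log2 were few, 5 higher and 30 lower. With a correction for length and GC content of the transcripts the split turned, with 1637 genes higher and 1373 lower. Without isoproterenol 3 the count was 712 higher and 820 lower. With the Y-linked level as a covariate it was 465 higher and 855 lower.

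**Figure D2:**
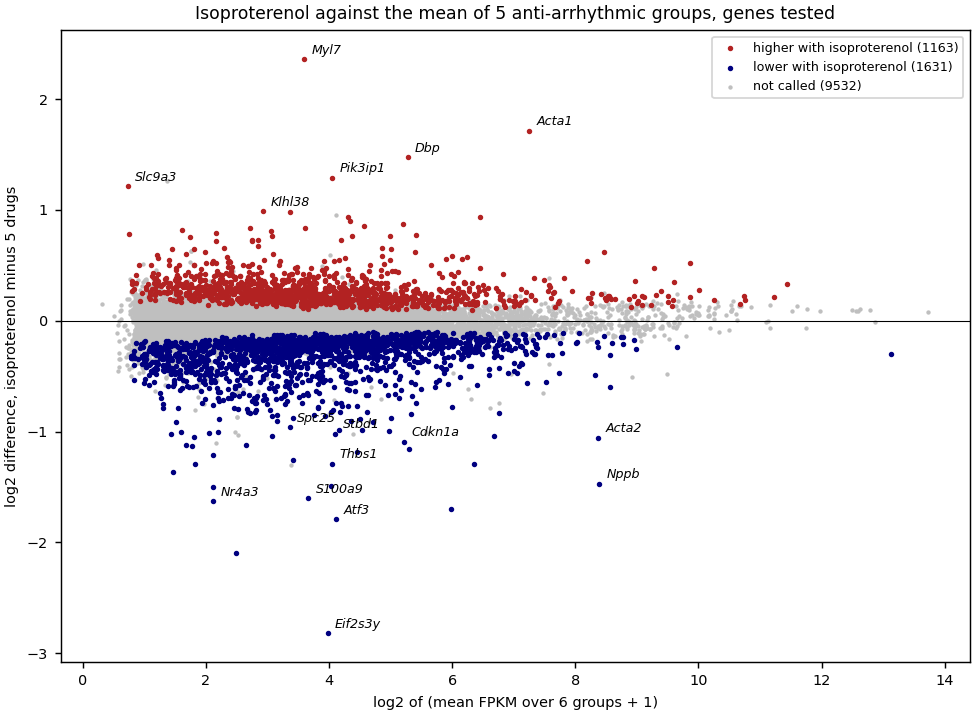
Difference between isoproterenol and the mean of the 5 anti-arrhythmic groups (vertical axis, log2 of FPKM + 1) against mean level (horizontal axis, log2 of mean FPKM + 1) for the genes tested; each point is a gene, coloured by its call. Dbp and Slc9a3 lie near the top and Atf3, Nr4a3 and Nppb near the bottom, and Myl7, high in isoproterenol 3, and the Y-linked Eif2s3y are the extremes.

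Transcripts of the β-adrenergic pathway itself differed by small amounts. Of 22 tested genes for receptors, G proteins, cyclases, receptor kinases and arrestins, 5 rose and 2 fell, against 9.44% higher and 13.2% lower over all genes. The median difference was 0.038. Adrb1 (Entrez 11554), the main β-receptor of the cardiomyocyte and the target of metoprolol, was at 15.1, 17.2 and 14.6 FPKM in the isoproterenol libraries, against 11.9 to 18.2 FPKM (median 14.4) in the 15 anti-arrhythmic libraries. The groups overlapped, and the difference did not pass the test (log2 0.12 ± 0.07, adjusted p = 0.27). Adrb3, Adra1a and Adcy8 were among the members below the filter. The receptor kinases, which phosphorylate agonist-bound receptors so that arrestin can bind, gave the largest difference of the list. Adrbk2 (Entrez 320129), also called Grk3, was at 8.14, 6.94 and 7.20 FPKM with isoproterenol, against 3.94 to 5.90 FPKM (median 4.93) with the anti-arrhythmics. Its 3 isoproterenol libraries lay above all others (log2 0.49 ± 0.08, adjusted p = 3.3e-04). Grk5 also rose (13.2 ± 1.51 FPKM with isoproterenol and 10.6 ± 1.30 FPKM with the anti-arrhythmics; log2 0.29 ± 0.07, adjusted p = 0.0077), although the groups overlapped, and Adrbk1, also called Grk2, was level (27.8 against 27.9 FPKM). Adra1d, an α1-adrenergic receptor, rose (3.5 ± 0.293 FPKM with isoproterenol and 2.43 ± 0.444 FPKM with the anti-arrhythmics; log2 0.40 ± 0.08, adjusted p = 0.0025). The cyclases Adcy6 and Adcy9 rose by 0.18 and 0.17 log2, while Gnb1, a G protein β subunit, and Gnai1, an inhibitory α subunit, fell by 0.15 and 0.18 log2. Adrbk2 and Adra1d kept their calls in each alternative run, whereas the other 5 did not. Adcy6 lost its call without isoproterenol 1 (adjusted p = 0.15), without isoproterenol 3 (0.10) and in 3 further alternatives, and Grk5 lost it without isoproterenol 1 (adjusted p = 0.085) and with the Y-linked covariate (0.13). Adcy9 lost it in 14 of 36 alternatives (adjusted p up to 0.28), Gnai1 in 12 of 36 (up to 0.26) and Gnb1 in 1, without isoproterenol 3, amiodarone 2 and propranolol 1 (0.059).

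Of 17 phosphodiesterases, which break down cyclic nucleotides, 2 rose and 3 fell, shares near those over all genes (9.44% and 13.2%). Pde4a (Entrez 18577) was at 16.4, 16.7 and 20.1 FPKM in the isoproterenol libraries, against 12 to 15.2 FPKM (median 13.5) in the 15 anti-arrhythmic libraries, with no overlap (log2 0.36 ± 0.05, adjusted p = 2.5e-04). Its relatives Pde4d (Entrez 238871) and Pde4b (Entrez 18578), which hydrolyse the same nucleotide, fell. Pde4d was at 4.2, 4.67 and 4.80 FPKM with isoproterenol, against 4.55 to 9.42 FPKM (median 5.84) with the anti-arrhythmics, and Pde4b was at 15.8, 16.9 and 15.4 FPKM with isoproterenol, against 16.8 to 28.7 FPKM (median 21.7) with the anti-arrhythmics. The ranges overlapped for both genes (Pde4d log2 -0.41 ± 0.07, adjusted p = 4.7e-04; Pde4b log2 -0.40 ± 0.07, adjusted p = 4.9e-04). In the controls Pde4d stood at 4.56, 3.94 and 4.19 FPKM, close to the isoproterenol values. Pde3b fell (log2 -0.31 ± 0.08, adjusted p = 0.011) and Pde2a rose (log2 0.17 ± 0.05, adjusted p = 0.026). Among 11 Rgs genes, Rgs2, which speeds the shutting off of G protein signals, had the largest difference. Rgs2 (Entrez 19735) was at 12.5, 13.2 and 14.2 FPKM in the isoproterenol libraries, against 15.6 to 32.7 FPKM (median 22.1) in the 15 anti-arrhythmic libraries. The isoproterenol libraries were the 3 lowest of the 18 (log2 -0.64 ± 0.07, adjusted p = 2.9e-05), and the controls were at 12, 11.2 and 10.4 FPKM. Rgs10 and Rgs16 fell by 0.33 and 0.31 log2, and Rgs3 rose by 0.25 log2. Without isoproterenol 3 the calls of Rgs10 (adjusted p = 0.10), Rgs16 (0.13) and Pde2a (0.069) were lost. Without isoproterenol 1 those of Rgs3 (adjusted p = 0.081), Pde2a (0.15) and Pde3b (0.050) were lost. Pde4d lost its call in the fit of 2 groups (adjusted p = 0.089), and with the Y-linked covariate Rgs3 (0.16), Rgs16 (0.053), Pde2a (0.14) and Pde3b (0.055) lost theirs. Of 23 genes for protein kinase A subunits, anchors and cyclic AMP-binding Popeye proteins, 1 rose and 6 fell, against 9.44% higher and 13.2% lower over all genes. Popdc3 (log2 -0.38 ± 0.05, adjusted p = 1.8e-04) and the regulatory subunit gene Prkar1a (log2 -0.20 ± 0.04, adjusted p = 0.0043) were among the 6.

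Genes that cyclic AMP is known to induce were lower with isoproterenol than with the pooled anti-arrhythmics. Of 17 tested members, 10 fell and 1 rose, against 13.2% lower and 9.44% higher over all genes. The median was -0.68, against -0.014 over all genes, and Pck1, Bdnf and Areg were below the filter. The list mean per library was 3.27 to 3.32 on the log2(FPKM + 1) scale with isoproterenol, and 3.4 to 4.65 with the anti-arrhythmics. In the controls, outside the fit, it was 3.03 to 3.14. The isoproterenol libraries thus lay between the controls and the anti-arrhythmics. Atf3 (Entrez 11910), a stress-induced transcription factor, was at 3.78, 5.87 and 3.75 FPKM in the isoproterenol libraries, against 10.3 to 33.3 FPKM (median 16.8) in the 15 anti-arrhythmic libraries. The groups did not overlap (log2 -1.79 ± 0.23, adjusted p = 8.9e-05), and the controls were at 4.00, 4.73 and 8.21 FPKM. Nr4a3 (Entrez 18124), an orphan nuclear receptor, was at 0.260, 0.270 and 0.350 FPKM with isoproterenol, against 0.640 to 13.6 FPKM (median 2.21) with the anti-arrhythmics, again without overlap (log2 -1.63 ± 0.29, adjusted p = 8.6e-04). Its controls were at 0.310, 0.370 and 0.300 FPKM, as low as with isoproterenol. Against single drugs Nr4a3 did not pass limma for amiodarone (adjusted p = 0.075) or propranolol (0.37). Nr4a1 (Entrez 15370), the related receptor, was at 14.5, 19.2 and 15 FPKM with isoproterenol, against 13.4 to 171 FPKM (median 62.8) with the anti-arrhythmics, and here the ranges overlapped (log2 -1.70 ± 0.35, adjusted p = 0.0024). Sik1 (Entrez 17691), a kinase that restrains CREB coactivators, was at 15.3, 17.1 and 18.9 FPKM with isoproterenol, against 17.2 to 75.3 FPKM (median 38.3) with the anti-arrhythmics. Only propranolol 1 lay inside the isoproterenol range (log2 -1.16 ± 0.18, adjusted p = 4.1e-04). Irs2, an adaptor of the insulin receptor (4.81 ± 0.977 FPKM with isoproterenol and 17.5 ± 9.07 FPKM with the anti-arrhythmics; log2 -1.49 ± 0.29, adjusted p = 0.0017), and Fosl2, a partner of Jun (8.33 ± 0.967 FPKM with isoproterenol and 18.5 ± 6.90 FPKM with the anti-arrhythmics; log2 -0.98 ± 0.20, adjusted p = 0.0023), fell too. Per1, counted here and with the clock, is given with the clock below. Gem and Creb3l1 completed the 10. Cited2, a transcriptional coregulator, was the member that rose (23.3 ± 2.88 FPKM with isoproterenol and 15.6 ± 1.75 FPKM with the anti-arrhythmics; log2 0.55 ± 0.08, adjusted p = 1.4e-04). Dusp1, Ppargc1a, Crem, Nr4a2, Fgf18 and Id1 did not pass. The count of 10 was 8 without isoproterenol 3, amiodarone 2 and propranolol 1, and 7 with the Y-linked covariate. With that covariate Nr4a1 (adjusted p = 0.052), Fosl2 (0.056), Gem (0.19) and Creb3l1 (0.27) did not pass. Creb3l1 lost its call in 20 of 36 alternatives, the omission of any 1 isoproterenol library among them (adjusted p = 0.11, 0.16 and 0.086 without isoproterenol 1, 2 and 3).

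Maff (Entrez 17133), a small Maf transcription factor of the same list, was at 3.34, 3.99 and 3.69 FPKM in the isoproterenol libraries, against 4.82 to 9.60 FPKM (median 5.77) in the 15 anti-arrhythmic libraries, and the groups did not overlap (log2 -0.68 ± 0.08, adjusted p = 3.2e-05). Its second RefSeq promoter window is shown because it holds the full cyclic AMP response element, TGACGTCA, in capitals. The window runs from 250 bases before to 50 bases after the transcript start (chr15:79347270-79347569, plus strand, GRCm38.p6, 5′ to 3′ on the gene's strand).
Maff: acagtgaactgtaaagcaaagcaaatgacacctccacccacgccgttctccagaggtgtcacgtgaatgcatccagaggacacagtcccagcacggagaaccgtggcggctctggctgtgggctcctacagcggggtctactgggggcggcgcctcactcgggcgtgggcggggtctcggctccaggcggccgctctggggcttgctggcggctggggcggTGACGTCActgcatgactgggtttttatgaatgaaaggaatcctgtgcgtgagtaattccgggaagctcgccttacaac
The element starts 29 bases before the transcript start. TGACGTCA was searched on both strands and equals its own reverse complement. It was in 2 of the 12 list members with a window (16.7%), Maff and Dusp1, against 3.39% of the 9818 tested genes with a window. A match is a description of these letters, and binding was not measured.

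Immediate early genes, the first transcripts to appear after a stimulus, gave 13 lower and 1 higher of 19 tested, with a median of -0.34. Over all genes 13.2% were lower and 9.44% higher. Fosl1 and Arc were below the filter. The list mean per library was 3.904 to 4.012 with isoproterenol and 3.998 to 4.495 with the anti-arrhythmics, as log2(FPKM + 1). The controls, at 3.905 to 4.059, were close to isoproterenol. Klf4, a zinc finger factor, was at 24.4, 23.2 and 25.2 FPKM in the isoproterenol libraries, against 26.2 to 45.3 FPKM (median 34.7) in the 15 anti-arrhythmic libraries (log2 -0.47 ± 0.06, adjusted p = 8.8e-05). The isoproterenol libraries were the 3 lowest of the 18, followed by the propranolol libraries. Jund and Ier5 fell by 0.47 and 0.55 log2. Fos averaged 3.10 ± 1.29 FPKM with isoproterenol and 8.26 ± 4.57 FPKM with the anti-arrhythmics (log2 -1.04 ± 0.28, adjusted p = 0.013). Jun, the partner of Fos, was the member that rose (68.1 ± 7.71 FPKM with isoproterenol and 51.1 ± 10.6 FPKM with the anti-arrhythmics; log2 0.43 ± 0.09, adjusted p = 0.0030); Fos and Jun were named after their values were seen. Egr1 was level at 23.8 against 24.8 FPKM. This count was not steady, with 4 lower without isoproterenol 3, 6 without isoproterenol 1 and 3 with the Y-linked covariate. Fos lost its call without isoproterenol 3 (adjusted p = 0.10) or isoproterenol 1 (0.061), and Jun in the fit of 2 groups (0.057).

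**Figure D3:**
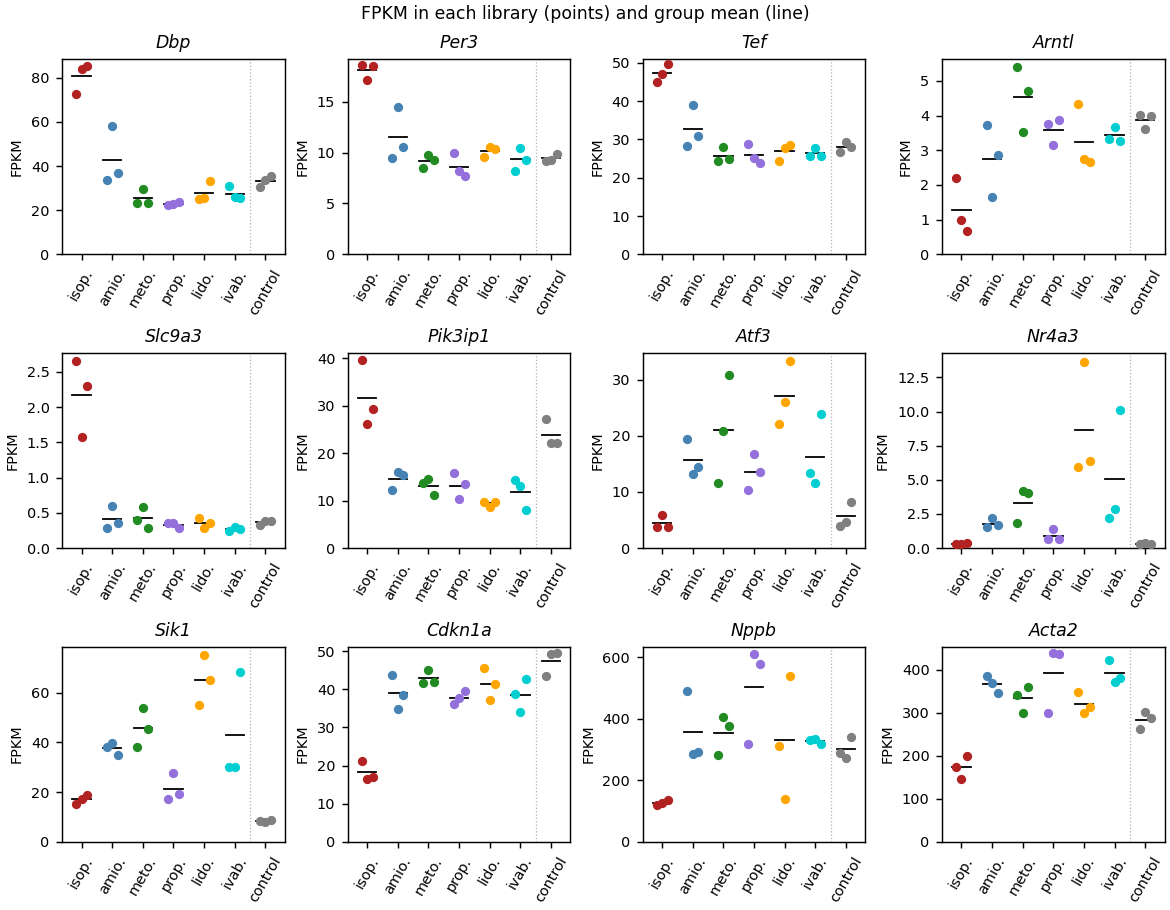
FPKM of 12 genes in each library (points) with the group mean (line); groups are abbreviated on the horizontal axis, and the controls, outside the fit, stand right of the dotted line. Dbp, Per3, Tef, Slc9a3 and Pik3ip1 were higher in all 3 isoproterenol libraries than in all 15 anti-arrhythmic libraries, and Atf3, Nr4a3, Cdkn1a, Nppb and Acta2 were lower. Apart from Tef, these genes were named among genes without overlap, so that trait was a condition of choice. Over all genes tested 3.45% lay above and 5.37% below all 15.

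Genes of the circadian clock differed by arm of the feedback loop. Of 20 clock genes, all tested, 9 rose and 4 fell, against 9.44% higher and 13.2% lower over all genes, with a median of 0.16. Dbp (Entrez 13170), a clock output factor of the PAR bZIP family, was at 72.5, 83.9 and 85.3 FPKM in the isoproterenol libraries, against 22.5 to 58.1 FPKM (median 25.5) in the 15 anti-arrhythmic libraries. The lowest isoproterenol library was above the highest of the 15, amiodarone 2 (log2 1.47 ± 0.12, adjusted p = 2.7e-06), and the controls were at 30.3, 33.5 and 35.3 FPKM. Tef (Entrez 21685), a factor of the same family, was at 45.1, 47.2 and 49.7 FPKM with isoproterenol, against 23.9 to 39.0 FPKM (median 27.8) with the anti-arrhythmics, with no overlap (log2 0.77 ± 0.08, adjusted p = 1.1e-05), and the third PAR factor, Hlf, rose by 0.36 log2. Per3 (Entrez 18628), a period protein, was at 18.7, 17.2 and 18.5 FPKM with isoproterenol, against 7.70 to 14.5 FPKM (median 9.59) with the anti-arrhythmics. Its groups did not overlap (log2 0.84 ± 0.09, adjusted p = 2.8e-05). Per2 rose by 0.53 log2. Nr1d1 (Entrez 217166), a repressor of Arntl, was at 26.5, 33.2 and 31.1 FPKM with isoproterenol, against 13.5 to 31.4 FPKM (median 16.4) with the anti-arrhythmics (log2 0.76 ± 0.12, adjusted p = 3.6e-04). Amiodarone 2 was the only library of the 15 to reach the isoproterenol range, and it was also the nearest to isoproterenol for Dbp (58.1 FPKM). Nr1d2 and Bhlhe41 rose as well, by 0.45 and 0.33 log2. The activators went the other way. Arntl (Entrez 11865), which encodes BMAL1, was at 2.19, 1.00 and 0.660 FPKM with isoproterenol, against 1.64 to 5.39 FPKM (median 3.52) with the anti-arrhythmics (log2 -1.01 ± 0.17, adjusted p = 7.2e-04). Its isoproterenol libraries overlapped amiodarone 2. Its partner Clock was at 3.70, 3.44 and 3.35 FPKM with isoproterenol, against 3.79 to 5.27 FPKM (median 4.39) with the anti-arrhythmics (log2 -0.26 ± 0.06, adjusted p = 0.0074). For Clock the groups did not overlap. Nfil3, a repressor at D-boxes, fell by 0.62 log2. Per1 (Entrez 18626), a period gene that stimuli induce directly, fell although Per2 and Per3 rose. It was at 13.2, 15.3 and 18.1 FPKM with isoproterenol, against 19.3 to 58.3 FPKM (median 30.8) with the anti-arrhythmics, with no overlap (log2 -1.0 ± 0.15, adjusted p = 3.5e-04), and at 10.5, 9.58 and 9.13 FPKM in the controls. Nfil3 and Clock lost their calls without isoproterenol 3 (adjusted p = 0.12 and 0.055), Nfil3 also without isoproterenol 2 (0.055), and Bhlhe41 with the Y-linked covariate (0.053). The 9 higher members were 9 without isoproterenol 3, amiodarone 2 and propranolol 1, and 7 with the Y-linked covariate. The hour of sampling is not in the labels, so its part in these differences was not tested.

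The window of Per3 is shown because PAR factors such as DBP, TEF and HLF bind D-boxes, and it holds TTATGTAA 2 times, in capitals (chr4:151044616-151044915, minus strand, GRCm38.p6, RefSeq, 5′ to 3′).
Per3: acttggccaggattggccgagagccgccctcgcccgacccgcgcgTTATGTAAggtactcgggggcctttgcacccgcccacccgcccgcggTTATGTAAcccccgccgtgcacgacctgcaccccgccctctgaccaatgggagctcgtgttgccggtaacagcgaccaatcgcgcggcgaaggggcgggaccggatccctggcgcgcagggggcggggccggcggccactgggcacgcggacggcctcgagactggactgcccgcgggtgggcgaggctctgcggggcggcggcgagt
The copies start 205 and 158 bases before the transcript start, 47 bases apart. Of 17 clock genes with a window, 1 held TTATGTAA on either strand (5.88%), against 0.642% of all tested genes with a window. The E-box CACGTG, at which CLOCK and BMAL1 bind, was in 5 of the 17 (29.4%), against 11.8% of all, Tef among them. The absence of a match says only that these letters are not in the window.

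Transcripts of dividing cells were lower in the isoproterenol hearts. Of 34 mitosis genes, all tested, 33 fell and 0 rose, with a median of -0.70, against 13.2% lower over all genes. For 27 of them the 3 isoproterenol libraries lay below all 15 others, against 5.37% of all genes. Spc25 (Entrez 66442), a subunit of the kinetochore NDC80 complex, was at 5.34, 5.40 and 3.60 FPKM in the isoproterenol libraries, against 6.64 to 11.9 FPKM (median 10.5) in the 15 anti-arrhythmic libraries. No anti-arrhythmic library reached the isoproterenol range (log2 -0.96 ± 0.10, adjusted p = 2.5e-05). Ccnb1 (Entrez 268697), cyclin B1, was at 5.82, 5.45 and 4.51 FPKM with isoproterenol, against 7.76 to 12.5 FPKM (median 10.7) with the anti-arrhythmics (log2 -0.88 ± 0.10, adjusted p = 2.8e-05). Ube2c (Entrez 68612), a ubiquitin-conjugating enzyme of mitotic exit, was at 26.5, 24.9 and 18.5 FPKM with isoproterenol, against 32.7 to 50.2 FPKM (median 42.4) with the anti-arrhythmics (log2 -0.85 ± 0.10, adjusted p = 5.2e-05). Groups were apart for both genes. The mitotic kinase Aurka (Entrez 20878), named after its values were seen, was at 5.06, 3.93 and 3.44 FPKM with isoproterenol, against 5.94 to 9.54 FPKM (median 9.05) with the anti-arrhythmics (log2 -0.91 ± 0.11, adjusted p = 5.6e-05). Cenpa, the centromeric histone, was the member that did not differ (50.2 ± 1.96 FPKM with isoproterenol and 50.4 ± 6.52 FPKM with the anti-arrhythmics; log2 0.01 ± 0.10, adjusted p = 0.97). The mean of the list per library was 2.79, 2.87 and 2.38 on the log2(FPKM + 1) scale with isoproterenol, against 3.04 to 3.56 with the anti-arrhythmics and 3.53 to 3.69 in the controls. Isoproterenol 3, the library with atrial transcripts, was the lowest. Without it 30 of the 34 members fell. In these bulk samples, fewer dividing cells and less RNA per cell cannot be told apart.

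Genes of DNA replication followed, with 27 of 32 lower, against 13.2% over all genes, 0 higher and a median of -0.42. Orc1 was below the filter. Rrm2 (Entrez 20135), a subunit of ribonucleotide reductase, was at 20.3, 16.9 and 16.4 FPKM in the isoproterenol libraries, against 26.9 to 41.3 FPKM (median 34.2) in the 15 anti-arrhythmic libraries, without overlap (log2 -0.88 ± 0.10, adjusted p = 4.4e-05). Rrm1 and Pcna, the sliding clamp, fell by 0.55 and 0.51 log2. The 27 were 17 without isoproterenol 3 and 16 with the Y-linked covariate. A brake on division fell as well. Cdkn1a (Entrez 12575), which encodes the inhibitor p21 and is a p53 target, was at 21.2, 16.6 and 16.9 FPKM in the isoproterenol libraries, against 34.0 to 45.7 FPKM (median 39.5) in the 15 anti-arrhythmic libraries. The highest isoproterenol library was far below the lowest of the 15 (log2 -1.09 ± 0.08, adjusted p = 7.8e-07), and the controls were at 43.5, 49.3 and 49.6 FPKM. The inhibitor gene Cdkn2c fell by 0.40 log2 and cyclin D1, Ccnd1, by 0.25 log2. Of 16 tested genes of the list of cell cycle brakes and cyclins D, 6 fell and 2 rose (median -0.056). Over all genes 13.2% fell and 9.44% rose. Of 18 tested p53 targets, 2 rose and 7 fell (median -0.056), against 9.44% higher and 13.2% lower over all genes. Growth factors and receptors of heart growth gave 0 calls in either direction among 22 tested in limma, against 22.7% called over all genes. Their median was -0.053, and Agrn, Fgf1 and Fgf16 came nearest (adjusted p = 0.053, 0.068 and 0.074, unadjusted p = 0.013, 0.017 and 0.020).

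Promoter windows of 4 mitosis genes are shown because the list shared letters there that its choice did not use. Capitals mark the CCAAT box (CCAAT, or ATTGG on the other strand), which NF-Y binds, and the cell cycle homology region (TTTGAA, or TTCAAA on the other strand), which the DREAM and MuvB complexes bind. All are RefSeq windows of GRCm38.p6, 5′ to 3′ on the gene's strand, for Ube2c (chr2:164769679-164769978, plus strand), Spc25 (chr2:69206164-69206463, minus strand), Aurka (chr2:172370521-172370820, minus strand) and Ccnb1 (chr13:100786437-100786736, minus strand).
Ube2c: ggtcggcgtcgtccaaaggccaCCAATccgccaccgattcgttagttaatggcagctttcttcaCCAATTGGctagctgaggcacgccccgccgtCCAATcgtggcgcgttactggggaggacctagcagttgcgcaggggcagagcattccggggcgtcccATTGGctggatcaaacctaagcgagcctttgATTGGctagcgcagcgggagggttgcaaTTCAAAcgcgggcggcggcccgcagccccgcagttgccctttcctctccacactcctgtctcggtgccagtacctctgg
Spc25: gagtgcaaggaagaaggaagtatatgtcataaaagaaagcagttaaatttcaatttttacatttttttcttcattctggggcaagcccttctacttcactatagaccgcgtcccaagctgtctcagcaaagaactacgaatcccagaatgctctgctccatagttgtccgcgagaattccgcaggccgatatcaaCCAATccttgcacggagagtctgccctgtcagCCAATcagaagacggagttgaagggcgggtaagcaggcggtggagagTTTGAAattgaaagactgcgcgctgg
Aurka: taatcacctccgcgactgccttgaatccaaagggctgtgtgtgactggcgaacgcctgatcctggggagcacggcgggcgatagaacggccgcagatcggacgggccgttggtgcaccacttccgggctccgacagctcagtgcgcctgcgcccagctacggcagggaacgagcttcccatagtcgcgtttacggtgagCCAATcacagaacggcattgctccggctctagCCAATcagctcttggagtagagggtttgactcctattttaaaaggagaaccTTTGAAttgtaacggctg
Ccnb1: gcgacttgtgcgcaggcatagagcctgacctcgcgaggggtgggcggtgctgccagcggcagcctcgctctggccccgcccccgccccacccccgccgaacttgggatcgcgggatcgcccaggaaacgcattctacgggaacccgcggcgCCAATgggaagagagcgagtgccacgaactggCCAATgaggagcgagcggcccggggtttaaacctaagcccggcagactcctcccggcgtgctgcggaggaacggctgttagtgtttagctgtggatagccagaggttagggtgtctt
The last pair of CCAAT boxes of Spc25, Aurka and Ccnb1 started 32 bases apart in each, and that of Ube2c 31 bases apart. In Ube2c, 1 pair of CCAAT matches on opposite strands overlaps, in CCAATTGG. The TTTGAA match of Ube2c started 29 bases before the transcript start, and those of Spc25 and Aurka 24 and 32 bases after it. Ccnb1 had none in this window. Of the 30 mitosis genes with a window, 24 (80.0%) held CCAAT, against 43.2% of all tested genes with a window, and 23 (76.7%) held TTTGAA, against 14.0%. Aurka and Ube2c are shown after their values were seen.

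Of genes for fatty acid uptake and oxidation, all 28 tested, 14 rose and 1 fell, with a median of 0.14. Over all genes 9.44% rose and 13.2% fell. Acadm (Entrez 11364), medium-chain acyl-CoA dehydrogenase, was at 392, 391 and 396 FPKM in the isoproterenol libraries, against 303 to 357 FPKM (median 331) in the 15 anti-arrhythmic libraries. The groups were apart (log2 0.25 ± 0.04, adjusted p = 4.9e-04), and the controls were at 298, 275 and 266 FPKM. Hadhb, a subunit of the trifunctional protein, was at 711, 717 and 740.2 FPKM with isoproterenol, against 564 to 656 FPKM (median 622) with the anti-arrhythmics, also without overlap (log2 0.23 ± 0.04, adjusted p = 6.4e-04). The transporter gene Slc27a1 rose by 0.28 log2, and Acsl3 was the member that fell, a call lost without isoproterenol 2 or isoproterenol 3 (adjusted p = 0.14 and 0.15). These differences were small, and the 14 were 8 without isoproterenol 3 and 9 without isoproterenol 2. Of 38 genes of oxidative phosphorylation 0 fell and 9 rose (median 0.13), against 9.44% higher over all genes. Ndufa10, Ndufa9 and Sdhb were among the 9, at 0.20 to 0.21 log2. This count was 2 without isoproterenol 2 or without isoproterenol 3, 19 without ivabradine 1 and 27 after correction for length and GC. Sdhb lost its call without isoproterenol 2 or isoproterenol 3 (adjusted p = 0.060 and 0.056).

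Ucp3, a mitochondrial uncoupling protein and PPAR target, was at 57.0, 55.7 and 60.9 FPKM in the isoproterenol libraries, against 28.4 to 47.1 FPKM (median 36.7) in the 15 anti-arrhythmic libraries, without overlap (log2 0.62 ± 0.11, adjusted p = 6.9e-04). The lipase gene Pnpla2 rose by 0.42 log2. Of 19 tested genes of the PPAR-responsive list, which holds Ucp3, Pnpla2 and Txnip, 5 rose and 2 fell (median 0.044). Over all genes 9.44% rose and 13.2% fell. Txnip, which limits glucose uptake, was at 445, 379 and 354 FPKM with isoproterenol, against 195 to 353 FPKM (median 269) with the anti-arrhythmics. Its lowest isoproterenol value was just above the highest of the 15 (log2 0.54 ± 0.10, adjusted p = 0.0014), and the controls, at 429, 362 and 387 FPKM, were as high. Among 24 glycolytic genes 6 rose and 3 fell, against 9.44% higher and 13.2% lower over all genes. The muscle enolase gene Eno3 was at 1175, 1295 and 1269 FPKM with isoproterenol, against 773 to 988 FPKM (median 863) with the anti-arrhythmics, without overlap (log2 0.52 ± 0.06, adjusted p = 3.2e-05), and Gapdh rose by 0.33 log2. Stbd1 (Entrez 52331), which anchors glycogen to membranes, went the other way and was at 7.65, 7.70 and 9.16 FPKM with isoproterenol, against 13.1 to 22.9 FPKM (median 17.4) with the anti-arrhythmics. All 15 anti-arrhythmic libraries exceeded it (log2 -1.02 ± 0.07, adjusted p = 6.3e-07), whereas the controls were at 7.30, 10.7 and 7.10 FPKM. Of 15 tested genes of the FoxO and muscle atrophy list 7 rose, against 9.44% over all genes, and 0 fell (median 0.14), with Mstn below the filter. Klhl38, a kelch-family gene, was at 14.7, 9.16 and 11.7 FPKM with isoproterenol, against 3.69 to 8.33 FPKM (median 4.75) with the anti-arrhythmics, without overlap (log2 0.99 ± 0.11, adjusted p = 2.7e-05). The stress-inducible Sesn1, a restraint on mTORC1, rose by 0.45 log2. The 7 were 4 without isoproterenol 1. Of 18 genes of cholesterol synthesis and uptake, 9 fell, against 13.2% of all genes, and 1, Fdft1, rose (median -0.29). Lower members numbered 2 against amiodarone (5.53% of all genes were lower), 3 against metoprolol (4.94%) and 8 against propranolol (7.77%). They numbered 9 against lidocaine (8.70%) and 9 against ivabradine (10.1%). The 9 were 5 without isoproterenol 3, amiodarone 2 and propranolol 1. Insig1, which retains the sterol sensor in the endoplasmic reticulum, was at 8.62, 9.34 and 8.13 FPKM with isoproterenol, against 10.5 to 15 FPKM (median 11.8) with the anti-arrhythmics, without overlap (log2 -0.42 ± 0.06, adjusted p = 2.4e-04). The synthase gene Hmgcs1 fell by 0.33 log2.

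**Figure D4:**
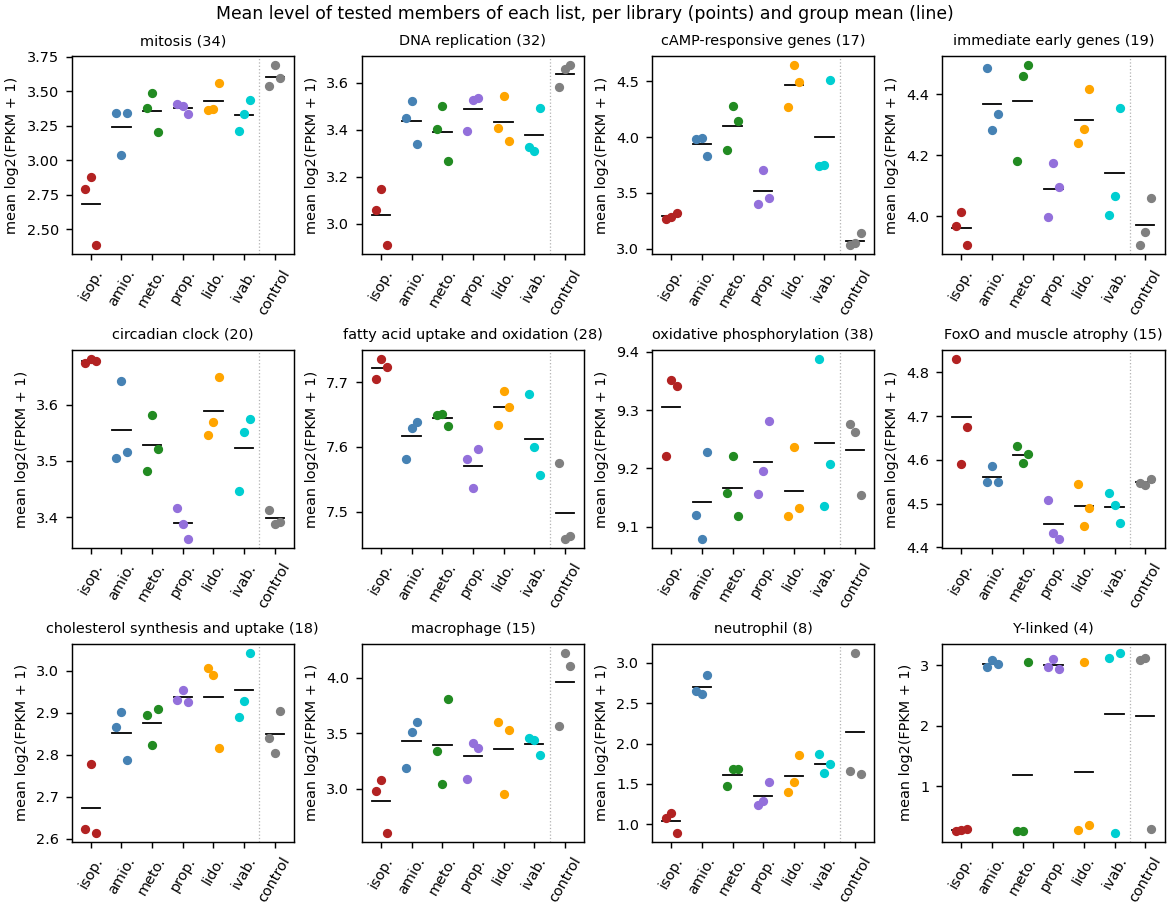
Mean log2(FPKM + 1) over the tested members of 12 gene lists in each library (points; line, group mean), with the number of members beside the list name; the controls stand right of the dotted line. Isoproterenol libraries were the lowest of the 18 for the mitosis, DNA replication, cAMP-responsive, cholesterol and neutrophil lists and the highest for the clock and fatty acid lists; vertical axes differ and do not start at 0.

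The largest decreases held genes of several kinds. Nppb (Entrez 18158), the natriuretic peptide that wall stress induces, was at 118, 128 and 135 FPKM in the isoproterenol libraries, against 140.0 to 611 FPKM (median 331) in the 15 anti-arrhythmic libraries. The lowest of the 15, lidocaine 2, came close to the isoproterenol values without reaching them (log2 -1.47 ± 0.27, adjusted p = 0.0011). Tnfrsf12a, the receptor of TWEAK, was at 26.4, 42.5 and 39.1 FPKM with isoproterenol, against 60.9 to 123 FPKM (median 84.2) with the anti-arrhythmics, without overlap (log2 -1.29 ± 0.18, adjusted p = 1.6e-04). Thbs1, the matrix protein thrombospondin-1, was at 6.44, 6.34 and 6.13 FPKM with isoproterenol, against 9.93 to 24.8 FPKM (median 15.7) with the anti-arrhythmics, again without overlap (log2 -1.29 ± 0.18, adjusted p = 1.6e-04). Ctgf, a matricellular YAP target, was at 52.6, 42.5 and 52.0 FPKM with isoproterenol, against 53.8 to 237 FPKM (median 92.1) with the anti-arrhythmics (log2 -1.04 ± 0.17, adjusted p = 5.7e-04), and the highest isoproterenol value was just under the lowest of the 15. Against ivabradine alone Ctgf did not pass limma (adjusted p = 0.42). Acta2 (Entrez 11475), smooth muscle α-actin, was at 174, 146 and 199 FPKM with isoproterenol, against 298 to 439 FPKM (median 361) with the anti-arrhythmics (log2 -1.05 ± 0.10, adjusted p = 8.3e-06), and every isoproterenol library was lower. Of 11 smooth muscle and pericyte markers Acta2 was the only one to fall, and 3 rose, Cnn1 by 0.79 log2 (named after its values were seen). Over all genes 9.44% rose and 13.2% fell. Nes, an intermediate filament gene, and Srf, the factor that drives many actin genes, fell by 0.66 and 0.43 log2. Acta1 (Entrez 11459), skeletal α-actin, rose. It was at 218, 273 and 553 FPKM with isoproterenol, against 43.1 to 241 FPKM (median 103) with the anti-arrhythmics (log2 1.71 ± 0.26, adjusted p = 3.0e-04), only ivabradine libraries overlapped, and isoproterenol 3 was the highest. Myl7 passed too (log2 2.36 ± 0.79, adjusted p = 0.040), but without isoproterenol 3 its difference was 0.38 log2 (adjusted p = 0.45). Myh7, the slow myosin heavy chain, did not pass (48.9 ± 32.9 FPKM with isoproterenol and 83.6 ± 67.4 FPKM with the anti-arrhythmics; log2 -0.71 ± 0.41, adjusted p = 0.23). Extracellular matrix genes as a list gave 0 higher and 3 lower of 32, a smaller share than the 13.2% lower over all genes.

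The remaining large increases, picked among genes without overlap, were of mixed function. Slc9a3 (Entrez 105243), the sodium-proton exchanger NHE3, was low everywhere, at 2.65, 1.58 and 2.30 FPKM in the isoproterenol libraries, against 0.240 to 0.60 FPKM (median 0.350) in the 15 anti-arrhythmic libraries. Its difference was 1.22 ± 0.09 log2 (adjusted p = 1.6e-06), and the controls were at 0.320, 0.380 and 0.390 FPKM. Pik3ip1 (Entrez 216505), an inhibitor of phosphatidylinositol 3-kinase, was at 39.5, 26.2 and 29.2 FPKM with isoproterenol, against 8.04 to 16 FPKM (median 13.1) with the anti-arrhythmics. No library overlapped (log2 1.29 ± 0.14, adjusted p = 2.9e-05), and the controls, at 27.2, 22.1 and 22.1 FPKM, lay above all 15 as well. Gadd45a, a stress sensor of growth arrest, was at 17.5, 15.4 and 16.5 FPKM with isoproterenol, against 6.30 to 12.2 FPKM (median 7.10) with the anti-arrhythmics (log2 0.98 ± 0.09, adjusted p = 4.9e-06), and Msrb1, a methionine sulfoxide reductase, was at 111, 156 and 172 FPKM with isoproterenol, against 65.2 to 94.3 FPKM (median 72.9) with the anti-arrhythmics (log2 0.94 ± 0.10, adjusted p = 2.2e-05). Both were without overlap. Rpl3l, a striated-muscle form of ribosomal protein L3, was at 24.8, 36.0 and 35.1 FPKM with isoproterenol, against 12.5 to 19.6 FPKM (median 16.2) with the anti-arrhythmics (log2 0.94 ± 0.11, adjusted p = 4.9e-05), and all its isoproterenol values exceeded the others. Cytosolic ribosomal protein genes as a list gave 0 higher and 1 lower of 34, against 9.44% higher and 13.2% lower over all genes. Mid1ip1, Rit1, Fam78a, Smco1, Rasd2, Lpar3 and Gkn3 completed the 15 largest increases among genes whose groups did not overlap, with differences of 0.79 to 0.90 log2.

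Ion channel genes include targets of the anti-arrhythmic drugs. Of 11 tested genes of a list of sodium, pacemaker and T-type calcium channels and connexins, 5 rose and 0 fell (median 0.25), against 9.44% higher over all genes. Cacna1h and Gja1 were among the 5. Hcn4 and Hcn2, which carry the pacemaker current that ivabradine blocks, did not pass (Hcn4 log2 0.34 ± 0.14, adjusted p = 0.10; Hcn2 log2 0.22 ± 0.14, adjusted p = 0.26). Kcnh2, a potassium channel that amiodarone blocks, rose (53.5 ± 3.69 FPKM with isoproterenol and 46.1 ± 2.79 FPKM with the anti-arrhythmics; log2 0.21 ± 0.05, adjusted p = 0.0068), as did the L-type calcium channel gene Cacna1c (34.8 ± 2.63 FPKM with isoproterenol and 28.1 ± 2.62 FPKM with the anti-arrhythmics; log2 0.30 ± 0.08, adjusted p = 0.0098). Both calls were lost with the Y-linked covariate (adjusted p = 0.060 and 0.084), that of Kcnh2 also without isoproterenol 2 (0.059) and that of Cacna1c without isoproterenol 1 (0.075). Cacna1h (Entrez 58226), a T-type calcium channel, was at 11, 11.2 and 13.1 FPKM in the isoproterenol libraries, against 5.31 to 8.77 FPKM (median 6.44) in the 15 anti-arrhythmic libraries, without overlap (log2 0.76 ± 0.09, adjusted p = 3.2e-05). Of 17 cardiac potassium channel genes 6 rose (9.44% over all genes) and 1, Kcna4, fell (13.2%). Kcnj5, a subunit of the acetylcholine-gated channel, was at 30.6, 33.6 and 32.4 FPKM with isoproterenol, against 17.9 to 28.6 FPKM (median 23) with the anti-arrhythmics, without overlap (log2 0.50 ± 0.08, adjusted p = 3.2e-04). Connexin 43, Gja1, was at 242, 217 and 221 FPKM with isoproterenol, against 135 to 224 FPKM (median 176) with the anti-arrhythmics (log2 0.32 ± 0.05, adjusted p = 5.2e-04), and amiodarone 2 overlapped.

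Markers of leukocytes were lower with isoproterenol. Of 15 tested macrophage markers 8 fell and 0 rose (median -0.56), and of 8 tested neutrophil markers 7 fell and 0 rose (median -0.63). Over all genes 13.2% fell. The summed macrophage list stood at 129 to 249.8 FPKM with isoproterenol, against 186 to 507 FPKM with the anti-arrhythmics, and at 361 to 736 FPKM in the controls. S100a9 (Entrez 20202), a calcium-binding protein of neutrophils, was at 2.75, 3.25 and 3.10 FPKM in the isoproterenol libraries, against 5.34 to 32.4 FPKM (median 9.27) in the 15 anti-arrhythmic libraries, without overlap (log2 -1.60 ± 0.14, adjusted p = 4.9e-06). The 3 highest of the 15 were the amiodarone libraries, and the controls were at 9.24, 62.2 and 6.43 FPKM. Csf1r, the macrophage growth factor receptor (named after its values were seen), was at 10.0, 9.27 and 7.62 FPKM with isoproterenol, against 10.5 to 17.9 FPKM (median 13.5) with the anti-arrhythmics, without overlap (log2 -0.57 ± 0.10, adjusted p = 9.1e-04). Without isoproterenol 3 the counts were 5 macrophage and 4 neutrophil markers. The neutrophil count moved with amiodarone. Of the 8 markers, 7 were lower against amiodarone (5.53% of all genes were lower), 3 against metoprolol (4.94%) and 1 against propranolol (7.77%). Against lidocaine 3 were lower (8.70%) and against ivabradine 4 (10.1%). Without the amiodarone group 3 of the 8 fell, and in the fit of 2 groups 2 did. Endothelial markers gave 2 higher and 0 lower of 18, fibroblast markers 1 higher and 3 lower of 13, and ventricular cardiomyocyte markers 0 higher and 1 lower of 11. The shares over all genes were 9.44% higher and 13.2% lower. The part of cell numbers in the differences above was not tested.

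Taken drug by drug, isoproterenol differed from ivabradine in 2127 genes (17.3%), from lidocaine in 1966 (16.0%), from propranolol in 1723 (14.0%), from amiodarone in 1030 (8.36%) and from metoprolol in 963 (7.81%). These 5 comparisons share the isoproterenol libraries. The counts without isoproterenol 3 were 1254, 1225, 1017, 365 and 330 in the same order. The 5 anti-arrhythmic groups differed among themselves in 117 genes (0.949%; limma F test). Mitosis genes fell against each drug, with 27 members lower against amiodarone (5.53% of all genes were lower), 29 against metoprolol (4.94% of all), 33 against propranolol (7.77%), 33 against lidocaine (8.70%) and 31 against ivabradine (10.1%). The 17 tested cyclic AMP-responsive genes were counted in the same way, beside the same shares over all genes. Members lower numbered 13 against lidocaine (median -1.02), 9 against ivabradine (median -0.82), 9 against metoprolol (median -0.52), 7 against amiodarone (median -0.45) and 3 against propranolol (median -0.16). The 15 largest decreases were named only among called genes without overlap, a choice that favours a pass against each drug. Of these 15, 11 passed limma against each of the 5 drugs, which adds no separate support. Nr4a3 did not pass against amiodarone or propranolol, and Per1 did not against amiodarone (adjusted p = 0.091). Fosl2 did not pass against propranolol (0.19) or ivabradine (0.14), nor Ctgf against ivabradine (0.42).

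Nr4a1 averaged 16.3 FPKM with isoproterenol, 70.0 FPKM with amiodarone, 74.3 FPKM with metoprolol, 16.6 FPKM with propranolol, 129 FPKM with lidocaine and 64.5 FPKM with ivabradine, and the drugs differed in it (F test, adjusted p = 0.023). Isoproterenol and propranolol, the agonist and the nonselective antagonist, were level (log2 -0.01 ± 0.45), while the difference from lidocaine was -2.87 ± 0.45 log2. Sik1 averaged 17.1 FPKM with isoproterenol, 37.6 FPKM with amiodarone, 45.8 FPKM with metoprolol, 21.4 FPKM with propranolol, 65.2 FPKM with lidocaine and 42.8 FPKM with ivabradine (F test, adjusted p = 0.019). Propranolol came nearest to isoproterenol. Pde4d averaged 4.56 FPKM with isoproterenol, 5.33 FPKM with amiodarone, 5.98 FPKM with metoprolol, 4.75 FPKM with propranolol, 8.88 FPKM with lidocaine and 7.81 FPKM with ivabradine (F test, adjusted p = 8.1e-04), with propranolol again nearest. Between isoproterenol and metoprolol the differences were -2.03 ± 0.45 for Nr4a1, -1.36 ± 0.24 for Sik1 and -0.33 ± 0.09 for Pde4d on the log2 scale. Dbp and Cdkn1a showed no difference among the 5 drugs that passed the F test (adjusted p = 0.064 and 0.74). Against the single drugs, Cdkn1a fell by 1.0 to 1.2 log2.

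**Figure D5:**
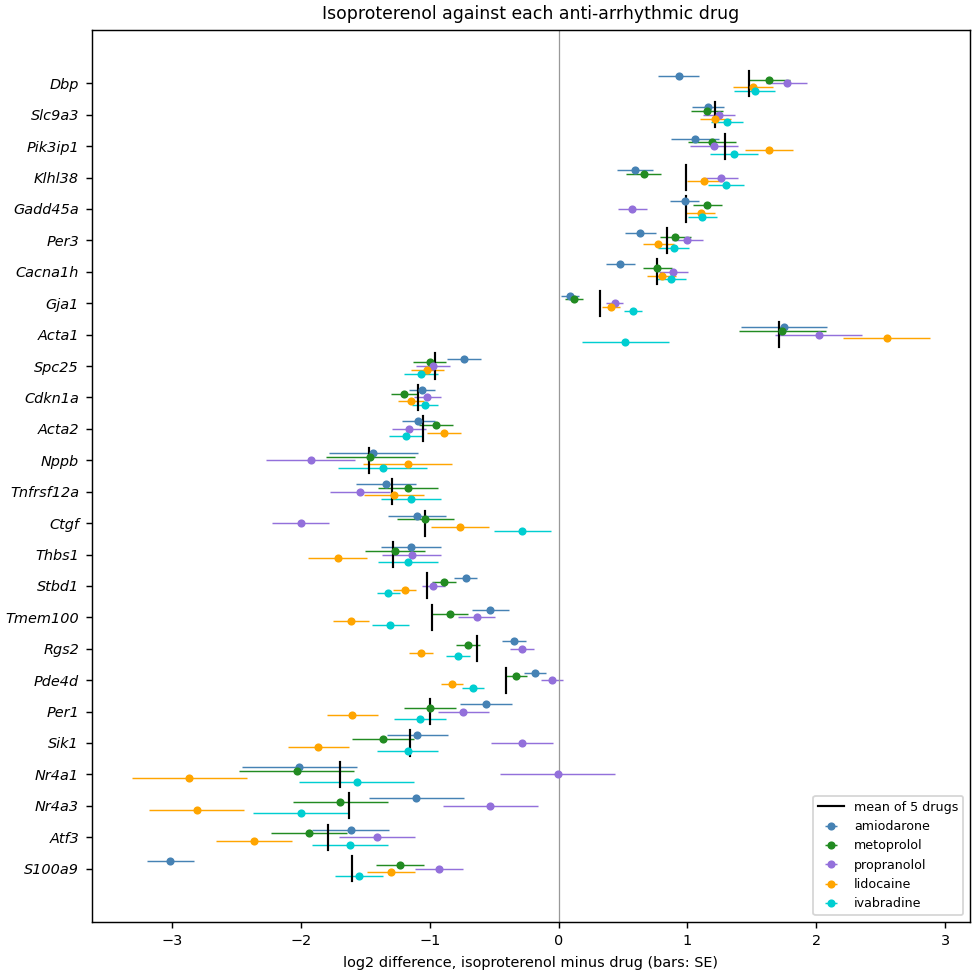
Isoproterenol minus each anti-arrhythmic drug (points with standard error, horizontal axis, log2 of FPKM + 1) for 26 genes, with the difference from the mean of the 5 drugs as a black line. Cdkn1a, Acta2 and Slc9a3 had like differences against the 5 drugs, while Nr4a1, Nr4a3, Sik1, Ctgf, Acta1 and S100a9 were spread.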

How the data were processed

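RNA from the heart apex was sequenced in 21 libraries, of which 18 entered the fit. The authors deposited 1 table of FPKM values for 18762 genes; per the submitters' processing notes, reads were handled with HISAT and Bowtie2 2.2.5 on mm9, a mouse build. The counter, annotation and filters are not given in the sources used here. All 21 value columns were matched to libraries by title (0 left over). Values were taken as log2(FPKM + 1), a scale with a pseudocount of 1, for genes reaching 1 FPKM in 3 or more of the 18 libraries. A linear model with 6 group means was fitted with limma 3.58.1 in R 4.3.3 (12 residual degrees of freedom, empirical Bayes moderation with a mean-variance trend). Contrasts were isoproterenol minus the mean of the 5 drugs, isoproterenol minus each drug, and an F test among the 5 drugs, each adjusted by the Benjamini-Hochberg method over all genes tested, at 0.05. The scripts were tested on simulated data. Without counts no test of counts was possible, and depth is unknown.

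The 55 lists (39 of pathways, 16 of markers) were written from general knowledge, and the members and lists were chosen with earlier results of these data known. Lists are described by counts and medians and were not tested as sets. Named were the 15 largest called differences each way with the 3 isoproterenol libraries outside the 15 others and at least 1 FPKM on a side, the 3 members of smallest p per list, all members of the β-adrenergic, phosphodiesterase, Rgs, cyclic AMP-responsive and clock lists, drug targets, and the 5 genes of smallest p among the drugs; the text gives part of these, and some members counted in the lists are not reported here by name. Title numbers are shared by the groups. Residuals of same-number libraries correlated at -0.24 to 0.29 (median -0.02), so no pairing was modelled.

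The alternatives tried were 0.1 as pseudocount, a filter at 5 FPKM or none, upper-quartile and median-of-ratios rescaling, a fit of 2 groups (isoproterenol and the rest), a fit of all 21 libraries, robust moderation, moderation without the trend, a replicate block by title number, the mean level of 4 Y-linked genes as a covariate, correction for transcript length and GC content (splines with 4 degrees of freedom, GENCODE transcripts matched for 96.7% of genes), leaving out 3 libraries with transcripts of other tissues, leaving out each drug and leaving out each library. Promoter windows are from RefSeq (GRCm38.p6), not from mm9.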

Additional observations from a re-analysis of the deposited data

Results flagged for a closer look

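For some named genes the 5 anti-arrhythmic groups differed among themselves (limma F test, Benjamini-Hochberg adjusted over all genes tested), so the isoproterenol difference was not of 1 size against each drug. All 5 differences share the isoproterenol libraries.

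Lidocaine gave the highest mean of the 5 drugs for the cyclic AMP-responsive genes Maff (adjusted p = 0.0096), Sik1 (0.019), Nr4a3 (0.023), Nr4a1 (0.023), Gem (0.019) and Dusp1 (0.0071). It also did so for Rgs2 (0.0013), Tmem100 (0.0023), Klf4 (0.0023), Pde4d (8.1e-04), Pde4b (0.017), Olfml2b (8.2e-04) and Usp2 (0.028), all as adjusted p. Nr4a3 averaged 0.293 FPKM with isoproterenol, 1.79 FPKM with amiodarone, 3.34 FPKM with metoprolol, 0.903 FPKM with propranolol, 8.64 FPKM with lidocaine and 5.07 FPKM with ivabradine. Tmem100 averaged 11.3 FPKM with isoproterenol, 16.7 FPKM with amiodarone, 21 FPKM with metoprolol, 18.0 FPKM with propranolol, 36.6 FPKM with lidocaine and 29.6 FPKM with ivabradine.

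Ivabradine gave the highest mean for Stbd1 (adjusted p = 0.0092), Nes (0.0092), Acta1 (0.034), Klf9 (0.015), Ppargc1a (0.043) and Rhobtb1 (4.6e-04). Acta1, skeletal α-actin, averaged 348 FPKM with isoproterenol, 101 FPKM with amiodarone, 98.0 FPKM with metoprolol, 81.3 FPKM with propranolol, 54.8 FPKM with lidocaine and 224 FPKM with ivabradine. Its difference from isoproterenol was 0.52 ± 0.33 log2 for ivabradine and 2.55 ± 0.33 log2 for lidocaine.

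Amiodarone gave the highest mean for the neutrophil genes S100a9 (adjusted p = 1.6e-04), Stfa3 (4.2e-05) and Lcn2 (0.0030), and for Klhl38 (0.018), Psat1 (0.043) and Gja1 (0.0030). S100a9 averaged 3.03 FPKM with isoproterenol, 31.5 FPKM with amiodarone, 8.50 FPKM with metoprolol, 6.84 FPKM with propranolol, 9.14 FPKM with lidocaine and 11 FPKM with ivabradine. The summed neutrophil list stood at 8.84 to 12.3 FPKM with isoproterenol, against 15.5 to 84.5 FPKM with the anti-arrhythmics, highest in amiodarone 3. Connexin 43 (Gja1) averaged 227 FPKM with isoproterenol, 214 FPKM with amiodarone, 209 FPKM with metoprolol, 168 FPKM with propranolol, 170.5 FPKM with lidocaine and 152 FPKM with ivabradine.

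Propranolol gave the highest mean for Gadd45a (adjusted p = 0.048), Ctgf (0.0067), Irx3 (0.017) and Synpo2l (0.046), and metoprolol for Sesn1 (0.047). Ctgf averaged 49.0 FPKM with isoproterenol, 108 FPKM with amiodarone, 104 FPKM with metoprolol, 202 FPKM with propranolol, 86.5 FPKM with lidocaine and 59.7 FPKM with ivabradine.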

How the results depend on the processing

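The lower mitosis genes and the higher clock genes kept their counts within 1.5 times under each alternative run (27 to 33 and 7 to 10), as did the cyclic AMP-responsive genes (7 to 12). Of 148 named genes that passed, 101 passed in each alternative with a test. Many of these were named for large differences or small p in these same data. The share of 101 therefore does not hold for called genes at large. Rgs5, not called, was reversed and called after correction for length and GC (log2 0.10, adjusted p = 0.040). The title number as a block gave 1098 genes higher and 1523 lower (2621 in all); pairing is not supported by the labels, and 8 of 45 same-number pairs correlated over 0.1, with 4 libraries correlating best with their own number. The Y-linked covariate gave 1320 genes called (465 higher, 855 lower), 187 against amiodarone, 417 against propranolol and 911 against ivabradine, with 16 DNA replication, 3 immediate early, 9 fatty acid, 4 FoxO, 5 macrophage and 4 neutrophil members called. Without isoproterenol 3, amiodarone 2 and propranolol 1 together, 1427 genes were called (688 higher, 739 lower), 202 against amiodarone, 303 against metoprolol, 886 against propranolol, 1146 against lidocaine and 1154 against ivabradine, 29 among the drugs, and 16 DNA replication, 5 immediate early, 6 fatty acid, 1 oxidative phosphorylation, 4 macrophage and 5 cholesterol members. Immediate early members were 8 with no filter and 6 in the fit of 2 groups; neutrophil members were 3 with the filter at 5 FPKM, 2 in the fit of 2 groups and 3 without the amiodarone group. Oxidative phosphorylation members were 27 after length and GC correction and 16 without the ivabradine group, and the genes differing among the drugs were 42 without amiodarone and 52 without propranolol. Leaving out each library in turn gave 1532 to 3241 genes called, 695 to 1337 higher and 820 to 1904 lower, 357 to 1247 against amiodarone, 330 to 1231 against metoprolol, 882 to 2023 against propranolol, 1225 to 2280 against lidocaine, 1099 to 2091 against ivabradine and 66 to 136 among the drugs. Members called then were 30 to 33 mitosis, 17 to 28 DNA replication, 9 to 12 cyclic AMP-responsive, 4 to 14 immediate early, 8 to 10 clock, 8 to 14 fatty acid, 2 to 19 oxidative phosphorylation, 4 to 7 FoxO, 5 to 8 macrophage, 4 to 7 neutrophil and 7 to 10 cholesterol. The cause of these changes was not tested. Each difference rests on the same 3 isoproterenol libraries, and its standard error also uses the spread within the other groups. Depth cannot be used to weigh values.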

Other observations

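Genes of protein folding and amino acid stress moved in both directions. Of 19 tested members of the unfolded protein and integrated stress response, 7 fell and 2 rose (median -0.16), against 13.2% lower and 9.44% higher over all genes. Atf4, the central factor of the integrated stress response, averaged 60.1 ± 5.44 FPKM with isoproterenol and 79.7 ± 3.63 FPKM with the anti-arrhythmics (log2 -0.40 ± 0.05, adjusted p = 1.0e-04), and Psat1, of serine synthesis, fell by 0.45 log2. Herpud1, of endoplasmic reticulum degradation, rose (70.0 ± 1.47 FPKM with isoproterenol and 53.2 ± 4.79 FPKM with the anti-arrhythmics; log2 0.39 ± 0.06, adjusted p = 3.0e-04). Among 13 cytosolic heat shock genes 0 rose and 3 fell (13.2% over all genes), Hsp90aa1 by 0.54 log2.

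Of 21 tested cardiac transcription factors, 6 rose and 4 fell, against 9.44% higher and 13.2% lower over all genes. Irx3, a factor of the conduction system and ventricular gradient, averaged 43.8 ± 2.76 FPKM with isoproterenol and 28.6 ± 8.02 FPKM with the anti-arrhythmics (log2 0.65 ± 0.12, adjusted p = 0.0015), and Tbx2 rose by 0.33 log2. Dusp8 and Dusp16, phosphatases of stress-activated kinases, fell by 0.89 and 0.58 log2. Apln, the ligand apelin, and Aplnr, its receptor, moved in opposite directions. Apln averaged 20.1 ± 6.04 FPKM with isoproterenol and 32.2 ± 6.47 FPKM with the anti-arrhythmics (log2 -0.67 ± 0.13, adjusted p = 0.0017), and Aplnr averaged 66.0 ± 14.2 FPKM with isoproterenol and 46.1 ± 7.47 FPKM with the anti-arrhythmics (log2 0.50 ± 0.10, adjusted p = 0.0023). The metalloprotease genes Adamts1 and Adamts4, which cleave versican and aggrecan, fell by 0.91 and 0.71 log2. Of 20 glycogen storage genes 3 rose and 2 fell, shares near those over all genes (9.44% and 13.2%). Among them Pygm, muscle glycogen phosphorylase, rose by 0.25 log2.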
